A study of Homo sapiens with 4 samples.

Results

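The genes described here encode integrins, the receptors with which cells hold on to their matrix, and the proteins that join integrins to actin inside the cell. The group holds 34 genes chosen by symbol: 12 integrin α subunits, 8 integrin β subunits and 14 intracellular proteins of focal adhesions. Each symbol matched 1 row of the 63241 genes in the count table. Of the 34 genes, 31 had a scaled level of at least 1 count per 1000000 (CPM) in at least 1 library, and ITGA8, ITGA9 and ITGB7 did not.

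The libraries were made from LX-2, an immortalised human line derived from hepatic stellate cells, which produce the matrix of liver scars. All cells were first kept for 24 h in 0.5% serum. The control library came from cells without added TGF-β. The TGF-β library came from cells given TGF-β at 20 ng/mL for 24 h, and its sample description names DMSO, which that of the control does not. The remaining libraries came from cells given the same TGF-β dose together with 5 µM BDS4 or 5 µM RVX-208 for 24 h. BDS4 is a code name that is not resolved further here. RVX-208 (apabetalone) inhibits BET proteins, which are readers of acetylated histones, and prefers their second bromodomain. Each group is 1 library of 1 cell line, so no difference below could be compared with the spread between cultures, and no p-value is given.

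Integrins are pairs of 1 α and 1 β chain that span the membrane. The α chain largely sets the ligand: collagen, laminin, or proteins such as fibronectin that carry an arginine-glycine-aspartate (RGD) motif. Talin and kindlin bind the β tail and switch the receptor on, and the complex of ILK, PINCH and parvin, the kinase FAK with its scaffolds, and vinculin, zyxin and tensin then tie it to signalling and to actin. In stellate cells, integrins carry traction from stiff matrix into the cell, and those with the αV chain can release TGF-β from its latent complex.

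Promoter sequences were taken from RefSeq (build GRCh38.p14), which gave 47 windows of 300 bases for 26 of the genes. Shown here are the 250 bases before the start and the first transcribed base of ITGA5, which was lower with BDS4, of ITGB6, whose ratio with TGF-β was the largest of the measured members, and of ITGA2, which was higher with TGF-β. Capitals mark matches on either strand to the letters TGANTCA of AP-1, GGAATG of TEAD factors, CAGACA of SMAD factors, GGGCGG of SP1, TATAAA of the TATA box and CANCTG of the E-box, and to the CArG box of serum response factor. None of the marked matches overlap.
ITGA5 (chr12:54419266-54419516, minus strand): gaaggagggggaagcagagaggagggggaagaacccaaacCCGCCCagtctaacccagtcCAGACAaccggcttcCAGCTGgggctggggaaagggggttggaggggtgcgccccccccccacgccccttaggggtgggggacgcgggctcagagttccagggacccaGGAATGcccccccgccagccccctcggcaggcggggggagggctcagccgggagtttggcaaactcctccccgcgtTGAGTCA
ITGB6 (chr2:160200272-160200522, minus strand): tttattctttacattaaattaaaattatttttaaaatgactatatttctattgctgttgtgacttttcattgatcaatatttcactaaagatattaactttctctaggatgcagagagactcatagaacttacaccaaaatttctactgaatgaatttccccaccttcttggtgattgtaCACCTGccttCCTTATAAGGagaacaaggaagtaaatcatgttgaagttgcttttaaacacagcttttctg
ITGA2 (chr5:52989102-52989352, plus strand): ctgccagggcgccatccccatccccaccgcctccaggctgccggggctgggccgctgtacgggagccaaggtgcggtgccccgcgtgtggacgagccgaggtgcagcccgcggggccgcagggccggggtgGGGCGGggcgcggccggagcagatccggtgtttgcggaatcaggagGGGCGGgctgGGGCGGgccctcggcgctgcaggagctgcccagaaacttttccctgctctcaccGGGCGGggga
The ITGA5 window held matches to the AP-1, TEAD, SMAD, SP1 and E-box letters, with the AP-1 match starting at position -6 and ending on the first transcribed base. The ITGB6 window held the only CArG box among the 47 windows, at position -60, and had 31.7% G and C. The ITGA2 window held 4 matches, all to the SP1 letters, and had 72.7% G and C. Over all 35116 windows the AP-1 letters occurred in 7.71%, the TEAD letters in 14.0%, the SMAD letters in 16.9%, the SP1 letters in 45.0%, the TATA letters in 11.5%, the E-box letters in 49.9% and the CArG box in 1.29%. Among the 47 windows of these genes the numbers were 3, 7, 5, 26, 3, 21 and 1 in the same order. A match describes the letters of the window only.

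Library totals ranged from 17022369 to 22503094 counts. Levels are given as CPM scaled by TMM factors, and the 95% intervals of ratios express the error of counting alone. The call rule asked for a 2-fold difference or more, up or down, and for an interval without 1. In a bulk library, fewer cells of a type and less RNA per cell cannot be told apart. Of 14 stellate and mesenchymal markers 11 passed 1 CPM. The list summed to 6654 CPM in the control, 10319 with TGF-β, 4871 with BDS4 and 8379 with RVX-208, mostly VIM and COL1A1. Most of the 11 were not level. With TGF-β 4 were called higher and 1 lower (45.5%, beside 9.68% of all genes tested). With BDS4 1 was called higher and 7 lower (72.7%, beside 32.2%), with a median log2 ratio of -1.645. With RVX-208 3 were called lower (27.3%, beside 8.19%). COL1A1 stood at 2075 CPM in the control, 4705 with TGF-β, 103 with BDS4 and 2936 with RVX-208. ACTA2 stood at 21.5, 27.0, 19.2 and 24.6 CPM in the same order, with no call. THY1, also without a call, stood at 119 CPM with TGF-β and was higher with BDS4, at 222. PDGFRB, the receptor for PDGF-B on stellate cells, stood at 35.0 CPM in the control, 136 with TGF-β, 5.98 with BDS4 and 63.3 with RVX-208, and vimentin (VIM) at 3290 to 4080 CPM in all 4, while LRAT was at 0 in all libraries and DES was at 0 in all but the BDS4 library. Markers of other cells summed to 1.72 to 3.89 CPM for hepatocytes (1 of 8 passed) and 12.2 to 15.7 for endothelium (3 of 7). Leukocyte markers (3 of 8) summed to 11.6 to 35.4 CPM, mostly CD68. CD3E was at 0 in all libraries and PTPRC at 4 counts or fewer. CD68 stood at 27.9 CPM in the control and 13.4 with TGF-β, and CD14 at 6.57 and 3.03, both called lower. LYZ (7 and 19 counts) was called higher with TGF-β. CD14 was also called lower with RVX-208 than with TGF-β. Cholangiocyte and epithelial markers (3 of 6) summed to 287 CPM in the control, 558 with TGF-β, 135 with BDS4 and 351 with RVX-208, mostly KRT18, with EPCAM at 4 counts or fewer. The mitochondrial ribosomal RNA genes held 0.903% of all counts with BDS4 and 0.212% to 0.248% in the other libraries. The part of these differences in the results was not tested.

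With TGF-β, several chains of collagen receptors, the αV partner ITGB5 and the scaffold NEDD9 were higher than in the control. Of the 31 measured genes 6 were called higher and 0 lower: the collagen-binding chains ITGA1, ITGA2 and ITGA11, the β chains ITGB5 and ITGB6, and the scaffold NEDD9. That is 19.4% of the measured genes, while of all 16099 genes tested 5.32% were called higher, 4.37% lower and 9.68% in either direction. ITGB6 passed the filter only through its level with TGF-β, and so had to differ. Without it 5 of 30 were called higher. With 5 CPM required 4 of 27 were, beside 6.84% of all genes called in either direction at that filter. The ITGA1 call ended when overlapping genes were summed, and ITGA11 had 34 counts in the control and 72 with TGF-β. The other αV partners had ratios of 1.05 (ITGB3) and 0.955 (ITGB8). The median log2 ratio was 0.28, beside -0.01 for all genes tested.

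With BDS4 added to TGF-β, the fibronectin receptor chain ITGA5, the chains ITGA4, ITGA11 and ITGB5, and the actin-linking proteins TNS1, TNS3 and ZYX fell, as did PXN and TLN1, while TLN2 rose. ITGB6 was also called lower, but it passed the filter through the TGF-β library alone and so had to be lower here. These are 10 lower and 1 higher of 31 (35.5%), and 32.2% of all genes tested were called in this comparison, so the number of calls lay near the background. The calls lower were 32.3% of the measured genes, beside 17.7% of all genes, and the median log2 ratio was -0.59, beside -0.01 for all genes. Without ITGB6, 9 of 30 were called lower and 1 higher. The actin-linking group had 3 of 4 lower, and the laminin-binding chains 0 of 3.

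With RVX-208 added to TGF-β, TNS3 fell and 0 of 31 genes rose. ITGB6 was also called lower, but it passed the filter through the TGF-β library alone, and without it 1 of 30 was called. The 2 calls are 6.45% of the measured genes, a share near the background. Of all genes tested, 5.25% were called lower, 2.94% higher and 8.19% in either direction. The median log2 ratio was -0.19, beside 0.01 for all genes. This comparison and the one with BDS4 use the same TGF-β library.

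BDS4 and RVX-208 were given at the same dose and for the same time, and their libraries were also compared directly. Of 31 genes 7 were lower with BDS4 (ITGA4, ITGA5, ITGB5, ITGB6, PXN, TNS1 and TNS3) and 2 higher (ITGB2 and TLN2). ITGB6 had 0 counts with BDS4 and 6 with RVX-208, under 1 CPM in both, and passed the filter only through the TGF-β library. With ITGB6 included, the calls lower were 22.6% of the measured genes, beside 13.1% of all genes tested. The calls in either direction were 29.03%, beside 24.8%. The median log2 ratio was -0.34, beside -0.01 for all genes.

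**Figure D1:**
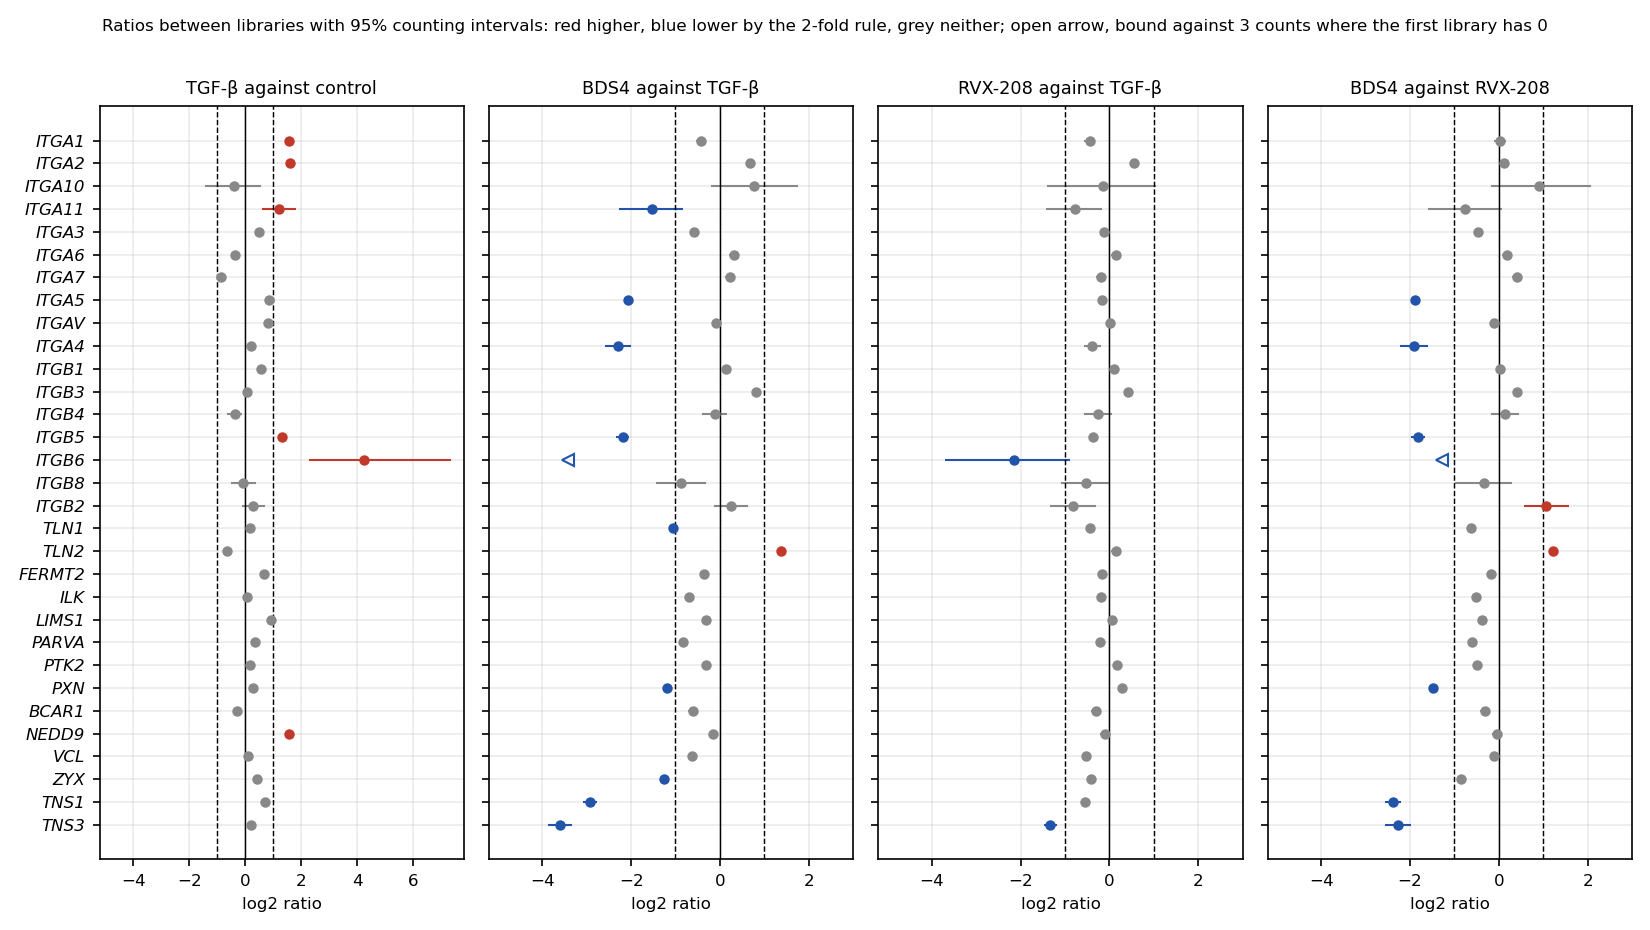
Log2 ratios (x axis) of the 31 measured genes (rows) in 4 comparisons between single libraries; points are ratios, bars 95% counting intervals and dashed lines a 2-fold ratio, and the first panel has a wider x axis than the others. With TGF-β the 6 called genes lie to the right, and with BDS4 10 of the 11 called genes lie to the left, down to TNS3 and the bound for ITGB6.

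Collagen-binding α chains pair with β1 and bind the collagens that stellate cells secrete. ITGA2, whose product binds network and fibrillar collagen, stood at 59.6 CPM in the control, 179 with TGF-β, 285 with BDS4 and 264 with RVX-208. All 3 libraries with TGF-β were above the control, and both with a compound were above TGF-β alone. ITGA2 rose 3.01-fold with TGF-β (2.83 to 3.20). With BDS4 it was a further 1.59-fold higher (1.53 to 1.66) and with RVX-208 1.47-fold (1.41 to 1.54), neither past the 2-fold rule. Against the control these levels were 4.79-fold (4.52 to 5.08) and 4.43-fold (4.17 to 4.70) higher. The direct ratio of BDS4 to RVX-208 was 1.08 (1.04 to 1.12).

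ITGA1, which lies 30115 bases before ITGA2 on chromosome 5 (GENCODE 29), stood at 23.8 CPM in the control, 70.7 with TGF-β, 52.8 with BDS4 and 51.9 with RVX-208. It rose 2.97-fold with TGF-β (2.70 to 3.27), and the levels with both compounds lay between TGF-β alone and the control. ITGA1 shares 475 exon bases, 2.56% of its own, with PELO on the same strand. PELO had 1322 counts in the control and 1394 with TGF-β. With all counts of the overlapping genes summed, the log2 ratio of ITGA1 with TGF-β was 0.76 in place of 1.57, which ends the call. ITGA11, a receptor for fibrillar collagen known from myofibroblasts, had 34 counts in the control, 72 with TGF-β, 23 with BDS4 and 32 with RVX-208. It rose 2.29-fold with TGF-β (1.503 to 3.55) and fell 2.89-fold with BDS4 (1.79 to 4.85), and with RVX-208 it was 1.72-fold lower (1.12 to 2.69). ITGA10 had 11 to 25 counts and passed the filter only through the BDS4 library, at 1.23 CPM.

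Laminin-binding chains did not include a called gene in any of the 4 comparisons. ITGA3, a receptor chain for laminins of the basement membrane, stood at 1137 CPM in the control, 1604 with TGF-β, 1067 with BDS4 and 1466 with RVX-208. Its level with BDS4 was 1.503-fold below that with TGF-β (1.48 to 1.53) and close to the control (1.07-fold lower, 1.05 to 1.08). ITGA6 stood at 85.3, 66.9, 83.3 and 73.7 CPM in the control, TGF-β, BDS4 and RVX-208 libraries. ITGA7, a chain best known from muscle, stood at 122, 66.8, 77.9 and 58.5 CPM in the same order. It was 1.83-fold lower with TGF-β than in the control (1.72 to 1.95), the lowest ratio among the measured genes in that comparison, and remained below the control with both compounds.

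ITGA5, whose product pairs with β1 as the main fibronectin receptor, separated the 2 compounds. It stood at 301 CPM in the control, 540.2 with TGF-β, 129 with BDS4 and 479.5 with RVX-208, so that the BDS4 library was the lowest and lay below the control. ITGA5 was 1.79-fold higher with TGF-β (1.74 to 1.85), under the 2-fold rule. With BDS4 it fell 4.17-fold against TGF-β (ratio 0.24, 0.23 to 0.25) and was 2.33-fold below the control (2.22 to 2.43), whereas with RVX-208 it was 1.13-fold lower than with TGF-β (1.09 to 1.16). The direct ratio was 3.70-fold lower with BDS4 (3.54 to 3.87). Its ligand gene FN1 stood at 2001, 11140, 2726 and 5299 CPM in the control, TGF-β, BDS4 and RVX-208 libraries.

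ITGAV encodes the α chain shared by the integrins that bind latent TGF-β. It stood at 98.5 CPM in the control, 172 with TGF-β, 162 with BDS4 and 174 with RVX-208, so all 3 libraries with TGF-β were above the control and near each other. It was 1.74-fold higher with TGF-β (1.66 to 1.84), and the ratio with BDS4 was 0.940 (0.897 to 0.985). ITGA4, the chain of receptors for VCAM1 and an alternative fibronectin site, stood at 22.9, 26.6, 5.44 and 20.4 CPM in the control, TGF-β, BDS4 and RVX-208 libraries. It fell 4.88-fold with BDS4 against TGF-β (3.98 to 6.04) and was 3.75-fold lower than with RVX-208 (3.02 to 4.69).

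**Figure D2:**
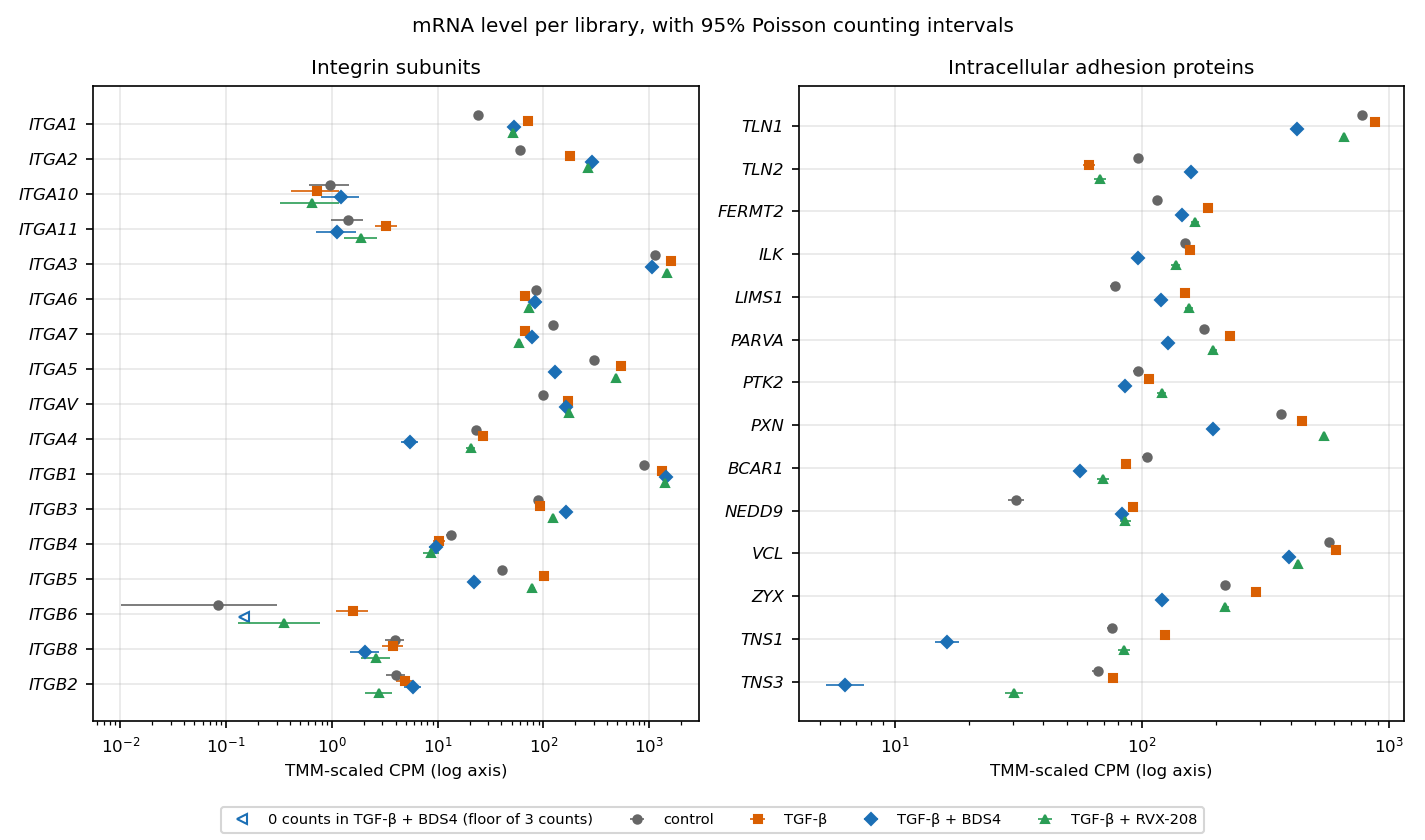
Level of each measured gene (rows) in the 4 libraries on a log axis of TMM-scaled CPM; symbols are single libraries, bars 95% Poisson counting intervals, and the open arrow marks the floor of 3 counts for ITGB6, which had 0 counts with BDS4. The BDS4 library is the lowest of the 4 for ITGA5, ITGA4, ITGB5, TNS1 and TNS3 and the highest for ITGA2 and TLN2.

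The β chains moved in different directions under BDS4. ITGB1, the partner of most α chains named above, stood at 887 CPM in the control, 1315 with TGF-β, 1438 with BDS4 and 1405 with RVX-208. It was 1.48-fold higher with TGF-β (1.46 to 1.51), and the ratio to TGF-β was 1.09 (1.08 to 1.11) with BDS4 and 1.07 (1.05 to 1.09) with RVX-208. The pseudogene ITGB1P1 carried 21.5% to 26.6% of the counts of the pair, so reads of ITGB1 may have been counted there. With the pair summed the log2 ratio with TGF-β was 0.59.

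ITGB5 and ITGB6 encode partners of αV. ITGB5 stood at 40.8 CPM in the control, 100.5 with TGF-β, 22.1 with BDS4 and 77.997 with RVX-208. The TGF-β library was the highest and the BDS4 library the lowest, below the control. ITGB5 rose 2.46-fold with TGF-β (2.28 to 2.66) and fell 4.54-fold with BDS4 (4.10 to 5.04), and with RVX-208 it was 1.29-fold lower (1.20 to 1.38). The direct ratio was 3.53-fold lower with BDS4 (3.17 to 3.93). ITGB6, which is known from epithelia, had 2 counts in the control, 35 with TGF-β, 0 with BDS4 and 6 with RVX-208. The ratio with TGF-β was 18.9 (4.86 to 162). With BDS4 its interval began at 8.31-fold lower, and a floor of 3 counts set against the 35 counts gives 10.8-fold. It was 4.45-fold lower with RVX-208 (1.85 to 12.9).

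ITGB3, the β chain of a vitronectin receptor, was in contrast highest with BDS4. It stood at 88.1 CPM in the control, 92.2 with TGF-β, 162 with BDS4 and 122 with RVX-208. The ratio to TGF-β was 1.75 (1.66 to 1.85) with BDS4 and 1.33 (1.25 to 1.41) with RVX-208, both under the 2-fold rule. A neighbouring protein-coding gene on the same strand shares 51.6% of the ITGB3 exon bases and had 25 counts with RVX-208 and 0 in the other libraries. ITGB4, the chain that anchors epithelial cells to laminin, stood at 8.67 to 13.4 CPM, and ITGB8, another partner of αV, at 2.06 to 3.94 CPM, with no call. ITGB2, the β chain of leukocyte integrins, had 96, 108, 119 and 47 counts in the control, TGF-β, BDS4 and RVX-208 libraries. It was 2.09-fold higher with BDS4 than with RVX-208 (1.48 to 3.00), which was under the 2-fold rule when libraries were scaled by their totals (log2 ratio 0.96). The genes under the filter had 9 to 14 counts in the first 3 libraries and 2 with RVX-208 (ITGB7) or at most 1 count in any library (ITGA8 and ITGA9).

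The deposited FPKM values, which are per gene length, allow levels of different subunits to be set side by side. ITGA3 held the largest share of the summed α chain FPKM in every library, 57.9% in the control, 54.3% with TGF-β, 51.8% with BDS4 and 51.0% with RVX-208. ITGA5 was the next in the control (20.4%), with TGF-β (24.4%) and with RVX-208 (22.2%). With BDS4 it held 8.37%, and ITGA2 took its place with 25.6%, against 5.62%, 11.2% and 17.0% in the control, TGF-β and RVX-208 libraries. ITGB1 held 62.7% to 66.0% of the β chain FPKM. The share of ITGB5 was 9.17% in the control, 15.6% with TGF-β, 3.23% with BDS4 and 11.5% with RVX-208, and that of ITGB3 was 24.1%, 17.4%, 28.7% and 21.9% in the same order.

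The lengths behind the deposited FPKM were 1.02 to 5.34 times the exon bases of GENCODE 29 for the 32 genes with enough counts to compute them, with ITGAV and ITGB1 at the upper end. With counts per kilobase of GENCODE 29 exons, ITGB1 held 83.4% to 84.8% and ITGB5 3.58%, 6.03%, 1.22% and 4.39% in the control, TGF-β, BDS4 and RVX-208 libraries. ITGA2 then held 3.55%, 7.38%, 17.1% and 11.4%, and ITGA5 18.7%, 23.2%, 8.12% and 21.6%. The order of these libraries was the same for ITGA2, ITGA5 and ITGB5 with either length. ITGB3 held 11.3%, 8.12%, 13.0% and 10.1% with GENCODE 29 lengths, and ITGAV 5.66%, 6.82%, 9.35% and 7.21%, in the same order. With BDS4 the ITGAV share then lay above that of ITGA5, while by FPKM it lay below (2.99% and 8.37%).

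**Figure D3:**
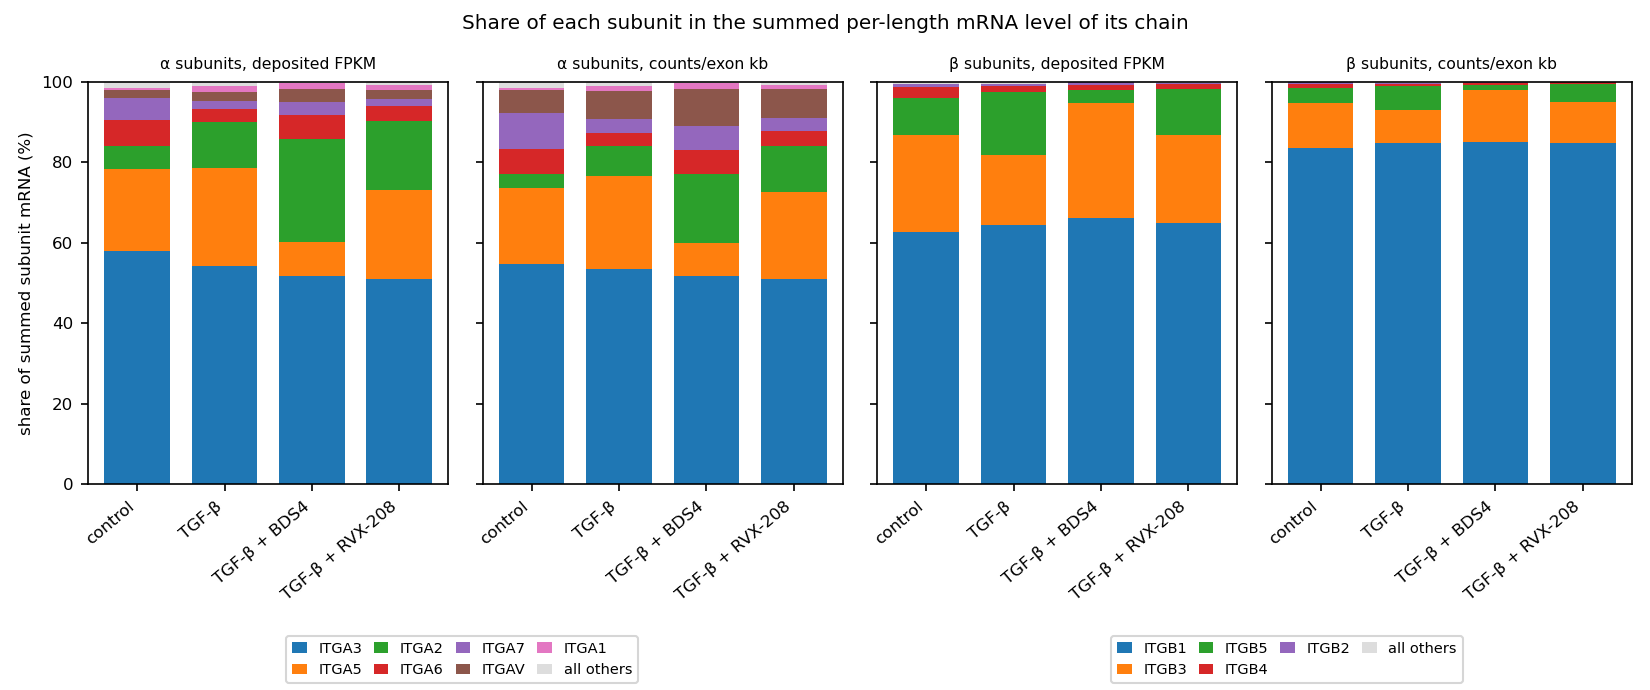
Share of each subunit (stacked bars, in percent) in the summed per-length mRNA level of α and β chains, for the 4 libraries, with the deposited FPKM and with counts per kilobase of GENCODE 29 exons. In the BDS4 library the ITGA2 share exceeds the ITGA5 share (25.6% and 8.37% of FPKM), and the ITGB5 share is the smallest of the 4 libraries (3.23%).

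Among the activators, which bind the β tail, the 2 talins differed. TLN1 stood at 776 CPM in the control, 879 with TGF-β, 424 with BDS4 and 654 with RVX-208. TLN2 stood at 96.7, 61.05, 159 and 67.7 CPM in the same order. Thus the BDS4 library was the lowest for TLN1 and the highest for TLN2. TLN1 fell 2.07-fold with BDS4 (2.02 to 2.13), just past the rule, and TLN2 rose 2.60-fold (2.44 to 2.77). With RVX-208 TLN1 was 1.34-fold lower (1.31 to 1.38) and the TLN2 ratio was 1.11 (1.02 to 1.20). An antisense gene, AC103740.1, shares 5.23% of the TLN2 exon bases and had 19 to 206 counts. On the per-length scale TLN1 remained above TLN2 in every library, at 34.4 against 7.58 FPKM with BDS4 and 76.5 against 3.12 with TGF-β. FERMT2, which encodes kindlin-2, stood at 116, 185, 145 and 163 CPM in the control, TGF-β, BDS4 and RVX-208 libraries, with no call.

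The complex of ILK, LIMS1 (PINCH) and PARVA (parvin), which links β tails to actin, had no called gene. ILK stood at 149.7, 157, 96.3 and 137 CPM in the control, TGF-β, BDS4 and RVX-208 libraries, and PARVA at 178, 227, 127 and 194 CPM. Both were lowest with BDS4, 1.63-fold (1.54 to 1.72) and 1.78-fold (1.70 to 1.87) below TGF-β. LIMS1 stood at 78.1 CPM in the control, 149 with TGF-β, 120 with BDS4 and 155 with RVX-208, 1.91-fold higher with TGF-β (1.802 to 2.02). The copies LIMS3 and LIMS4 had 3 to 116 and 272 to 510 counts, which may include reads of LIMS1. TAF10 on the opposite strand covers 68.1% of the ILK exon bases, and whether counting used strand was not given in the sources used here.

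Of the kinase and scaffold genes, NEDD9, a docking protein of the CAS family, rose 2.97-fold with TGF-β (2.73 to 3.24). It stood at 31.0 CPM in the control, 92.3 with TGF-β, 83.3 with BDS4 and 85.7 with RVX-208, so it was higher in all 3 libraries with TGF-β, compound or not. PXN (paxillin), the scaffold that recruits FAK partners, stood at 366, 445, 195 and 546 CPM in the control, TGF-β, BDS4 and RVX-208 libraries. It fell 2.29-fold with BDS4 (2.20 to 2.37), while with RVX-208 the ratio to TGF-β was 1.23 (1.19 to 1.26). The direct ratio was 2.80-fold lower with BDS4 (2.70 to 2.91). BCAR1, the p130CAS scaffold, stood at 104, 86.1, 56.3 and 69.7 CPM and PTK2, which encodes FAK, at 96.2, 107, 85.6 and 120.3 CPM, with no call.

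Apart from ITGB6, for which a bound alone can be given, the largest falls with BDS4 among the measured genes were in tensins, which bind β tails and actin in mature fibrillar adhesions. TNS3 stood at 66.3 CPM in the control, 76.4 with TGF-β, 6.33 with BDS4 and 30.4 with RVX-208. Both compound libraries were below the control. TNS3 fell 12.1-fold with BDS4 (10.1 to 14.6) and 2.51-fold with RVX-208 (2.27 to 2.78), and was 4.81-fold lower with BDS4 than with RVX-208 (3.96 to 5.88). TNS1 stood at 75.5 CPM in the control, 124 with TGF-β, 16.3 with BDS4 and 84.8 with RVX-208. It fell 7.57-fold with BDS4 (6.76 to 8.51), to 4.63-fold below the control (4.11 to 5.22), and with RVX-208 was 1.46-fold below TGF-β (1.37 to 1.56).

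ZYX (zyxin), which gathers at adhesions under tension, stood at 216, 289, 121 and 217 CPM in the control, TGF-β, BDS4 and RVX-208 libraries. It fell 2.40-fold with BDS4 (2.29 to 2.51), and with RVX-208 was 1.33-fold lower (1.28 to 1.39), at a ratio to the control of 1.01 (0.963 to 1.05). VCL (vinculin), which reinforces talin on actin, stood at 569.7, 613, 395 and 428 CPM in the same order. Its ratios to TGF-β were 1.55-fold lower with BDS4 (1.51 to 1.60) and 1.43-fold lower with RVX-208 (1.39 to 1.47), and the ratio between the compounds was 0.923 (0.894 to 0.953).

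Other genes of the adhesion machinery were taken from a list of 56, of which 54 were measured. With TGF-β 3 were called higher and 2 lower, with BDS4 5 higher and 16 lower, and with RVX-208 2 higher and 3 lower. These are 9.26%, 38.9% and 9.26% of the list, near the 9.68%, 32.2% and 8.19% of all genes tested. SORBS2 is among the calls in each of these comparisons, but it passed the filter through the TGF-β library alone and so had to differ. The calls lower with BDS4 were 29.6% of the list, beside 17.7% of all genes. Their median log2 ratios were 0.02, -0.40 and -0.04.

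ENAH, an actin polymerase of the Ena/VASP family, fell with TGF-β, from 109 to 41.1 CPM (2.65-fold, 2.46 to 2.87), and stood at 130.3 with BDS4, where it rose, and 79.6 with RVX-208. FERMT1, another kindlin gene, rose with TGF-β from 8.75 to 20.1 CPM and again with BDS4, to 44.4. LASP1, an actin-binding adaptor, rose with BDS4 and was 3.36-fold higher than with RVX-208 (3.23 to 3.50). Lower with BDS4 were TGFB1I1 (HIC-5, a paxillin relative; 5.72-fold, 5.16 to 6.34), PARVB (another parvin; 5.77-fold, 4.94 to 6.77), FBLIM1 (migfilin; 7.004-fold, 5.90 to 8.37), LIMS2 (another PINCH; 4.82-fold, 3.89 to 6.02) and KANK1, a talin-binding protein (12.4-fold, 7.69 to 21.3). With RVX-208 the kinase gene YES1 rose 2.37-fold (2.22 to 2.53) and KANK1 fell 2.93-fold (2.21 to 3.93).

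Of 31 integrin ligands 29 were measured. With TGF-β 11 were called higher and 2 lower (median log2 ratio 0.66), with BDS4 1 higher and 15 lower (-1.03), and with RVX-208 0 higher and 5 lower (-0.29). These are 44.8%, 55.2% and 17.2% of the list, beside 9.68%, 32.2% and 8.19% of all genes tested. Each of these shares includes POSTN, which passed the filter through the TGF-β library alone and so had to differ. VCAM1, called lower with TGF-β, passed through the control library alone and so had to be lower there. The collagen genes COL4A1 and COL4A2 stood at 196 and 717 CPM in the control, 928 and 2024 with TGF-β, 196 and 309 with BDS4, and 813 and 1774 with RVX-208. All of these ratios of TGF-β to control and of BDS4 to TGF-β passed the rule. The fibrillar collagen gene COL1A1 rose 2.27-fold with TGF-β (2.24 to 2.29) and fell 45.9-fold with BDS4 (43.9 to 47.9). THBS1, a ligand of several integrins, and TGFB1, whose latent form αV integrins bind, rose 3.88-fold (3.81 to 3.96) and 3.89-fold (3.77 to 4.01) with TGF-β. With RVX-208 COL6A1 fell 2.48-fold (2.38 to 2.59), and THBS1 was 1.98-fold lower (1.95 to 2.02). TNC, a ligand of αV and α9 integrins, fell 12.3-fold with BDS4 (11.7 to 12.9), and its level with RVX-208 was 845 CPM against 1030.1. Between the compounds, 3 other adhesion genes were higher and 10 lower with BDS4, and 1 ligand was higher and 8 lower, with medians of -0.42 and -0.26. The called shares were 24.1% and 31.0%, beside 24.8% of all genes tested.

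**Figure D4:**
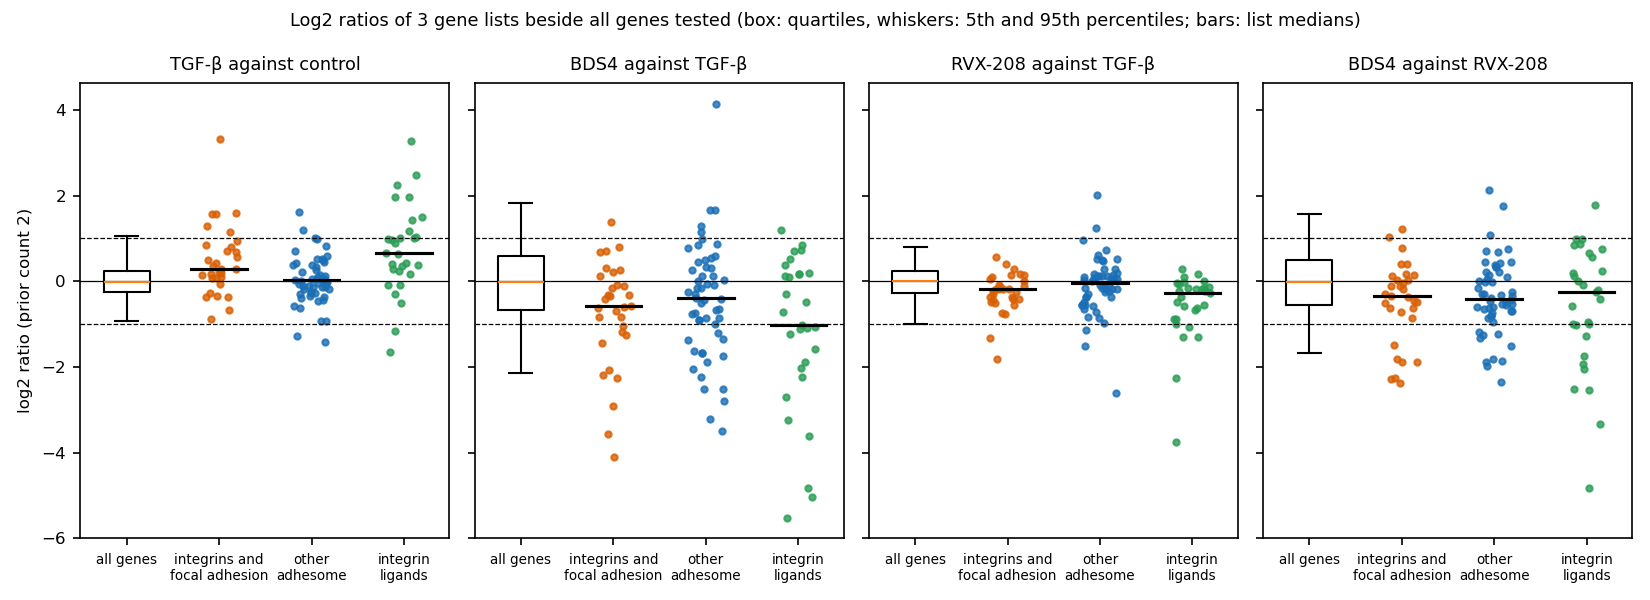
Log2 ratios with a prior count of 2 (y axis) of the integrin and focal adhesion genes, the other adhesion genes and the integrin ligands beside all 16099 genes tested, in 4 comparisons; points are genes, thick bars list medians, boxes quartiles and whiskers the 5th and 95th percentiles. With BDS4 the 3 list medians (-0.59, -0.40 and -1.03) lie below 0, and with TGF-β the ligands have the highest median (0.66).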

How the data were processed

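Raw counts per gene were deposited by the authors for 4 libraries, 1 per group, beside FPKM values that the authors made with StringTie 1.3.0, per the series' design text. CASAVA 1.8, TopHat2 2.0.6 and GRCh38 are named in the submitters' processing notes. The counting program, the annotation release and the use of strand were not given in the sources used here. Columns were matched to groups through the sample descriptions, where the column given for BDS4 has a name without that code.

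Counts were scaled by TMM (edgeR 4.0.16, R 4.3.3) over genes with 1 CPM or more in at least 1 library, and 16099 genes were tested. Ratios carry 95% conditional exact (Clopper-Pearson) intervals and levels exact Poisson intervals, both covering counting error only. A floor of 3 counts was used where a library had 0. The 2-fold rule is one of size, not a test across replicates. It was tried on simulated counts that varied by counting alone, so that trial could not cover the spread between cultures. Medians of log2 ratios used a prior count of 2. Exon overlaps came from GENCODE 29. Genes of the group were named with values in every library where called in a comparison, among the 10 largest ratios of a comparison, or highest of their role by FPKM, and genes of the other lists from the 6 largest ratios per comparison at 10 CPM or more. Some genes that this rule selects are not reported here. The members and lists were chosen with earlier results of these data known. Alternatives were DESeq2 1.42.0 size factors, total counts, other filters, a 1.5-fold rule, a prior count of 0.5 and overlapping genes or copies summed. Calculations used Python 3.11.15, numpy 2.4.6, scipy 1.17.1, pandas 2.3.3 and matplotlib 3.10.9.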

Additional observations from a re-analysis of the deposited data

How the results depend on the processing

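No paired analysis was possible because each group had 1 library. The numbers of called integrin and focal adhesion genes stayed within 1.5 times under DESeq2 size factors, total counts, no filter on low counts and overlapping genes summed, in all 4 comparisons. With a 1.5-fold rule, 13 were called with TGF-β (19.1% of all genes), 19 with BDS4 (50.9%) and 4 with RVX-208 (17.05%), in place of 6, 11 and 2. With 5 CPM required, or with ITGB6 left out (a setting added after seeing the data), 1 was called with RVX-208, since ITGB6 was not tested. At the 5 CPM filter 5.22% of all genes were called in that comparison. Under total-count scaling the median log2 ratio was 0.21 in place of 0.28 with TGF-β and -0.69 in place of -0.59 with BDS4, while the median of all genes shifted to -0.08 and -0.11. With BDS4 the group's median was -0.39 with no filter on low counts (all genes 0.11) and -0.42 with 5 CPM required. Of the log2 ratios of single genes, 1 call ended under total counts (ITGB2 between the compounds) and 1 with overlapping genes summed (ITGA1 with TGF-β). The remaining sign changes were of genes with no call: 5 under total counts, 1 under DESeq2 size factors and 2 with copies summed, a setting chosen after seeing the data, as was the use of GENCODE 29 lengths. Under 100 counts, as for ITGA10, ITGA11, ITGB6 and ITGB8, intervals are wide and smaller differences were not detectable at this depth.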

Other observations

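Of the 6 other integrin α chain genes in the table, which were looked at after the results were known, ITGA2B, ITGAE and ITGAX passed 1 CPM. ITGA2B, best known from platelets, stood at 9.55 CPM in the control, 8.11 with TGF-β, 2.94 with BDS4 and 4.04 with RVX-208, and fell 2.76-fold with BDS4 (2.05 to 3.76) and 2.01-fold with RVX-208 (1.51 to 2.69). ITGAE stood at 23.6 to 33.7 CPM and ITGAX at 1.90 to 2.76 CPM, with no call. ITGAM had at most 15 counts, ITGAL at most 3, and ITGAD 0 in every library. ITGBL1, which encodes a secreted protein related to integrin β chains, stood at 94.1, 48.5, 21.9 and 45.1 CPM in the control, TGF-β, BDS4 and RVX-208 libraries. It was highest in the control, with a ratio of TGF-β to control 1.94-fold lower (1.803 to 2.09), and fell 2.21-fold with BDS4 against TGF-β (1.98 to 2.48).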
